A study of Mus musculus with 2 samples.

Results

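The genes described here are 8 genes of intracellular lipolysis, the stepwise breakdown of stored triglyceride, out of 23361 genes with a value in both libraries. They were taken by symbol from the deposited table, as the lipases that cleave triglyceride, diglyceride and monoglyceride and the regulators of adipose triglyceride lipase (ATGL). All 8 were found, each in 1 row. RNA-Seq had been performed on brown preadipocytes (D0) and on brown adipocytes after differentiation to day 7 (D7), with 1 library per stage. Both came from interscapular brown adipose tissue of newborn mice, C57BL/6 in the labels and C57BL/6J in the methods of the study. According to the labels, the cells were kept for 4 days before induction in medium with insulin at 0.1 μM and T3 at 1 nM. The D0 cells received no inducers. The D7 cells received IBMX (at 0.5 mM), indomethacin (at 0.125 mM) and dexamethasone (at 2 μg/ml) from day 0 for 2 days, and then insulin and T3 alone. The methods of the study give other doses of insulin and dexamethasone. They also describe cells immortalized with large T, while the labels name primary cultures.

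In fat cells, triglyceride sits in a lipid droplet, and its breakdown runs through a chain of enzymes. ATGL, encoded by Pnpla2, removes the first fatty acid, hormone-sensitive lipase (Lipe) acts mainly on the diglyceride that is left, and monoglyceride lipase (Mgll) releases the last fatty acid and glycerol. ABHD5, also known as CGI-58, activates ATGL and G0S2 inhibits it. Perilipin 1 on the droplet surface holds ABHD5 back until protein kinase A phosphorylates it, downstream of β-adrenergic receptors and cAMP. In brown fat the released fatty acids fuel heat production and activate UCP1. Lysosomal acid lipase (Lipa) works in another place, on triglyceride and cholesteryl ester delivered to the lysosome.

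Values are FPKM, fragments per kb of transcript scaled to sequencing depth, as deposited. Of 15 adipocyte markers, 10 were above 0 in both libraries and were higher at D7 by 31.5-fold or more. The other 5, Ucp1, Cidea, Elovl3, Cox8b and Lep, were listed at 0 at D0 and reached an FPKM of at least 1 at D7. Of 15 preadipocyte and fibroblast markers, 7 were at least 2.0-fold lower at D7 and 2 were higher. The higher ones were Dlk1 (3.57 and 38.5) and Cd34 (1.85 and 15.4), and Pdgfra had a ratio of 0.973. Some markers of other cells moved as well, and their part in the results below was not tested. Of 14 macrophage markers, 13 were at least 2.0-fold higher at D7, and their summed FPKM was 157 at D0 and 592 at D7. Summed FPKM was 1.62 and 2.69 over 7 endothelial markers, with Tie1 at 0. It was 52.4 and 6.56 over 10 skeletal muscle markers, with Ckm at 0, and Acta1 alone had 45.4 and 1.73. Of the 7 muscle markers above 0 in both libraries, 2 were at least 2.0-fold lower at D7 and 1 was higher. Of 7 erythroid markers, 6 were listed at 0 in both libraries. Of 24 genes of ribosomal proteins, 6 were lower by at least 2.0-fold, and all had ratios between 0.363 and 0.657. In bulk RNA, a larger share of differentiated cells and more RNA per cell cannot be told apart.

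How many fragments lie behind an FPKM value was worked out with 600 single-exon genes. Their low values fell on whole fragments when FPKM was taken relative to 21471746 (D0) and 18265936 (D7) fragments. Intervals below are exact intervals at 95% on these fragments. Only counting error is covered. Since each stage has 1 library, the differences lack replicates and are given without p-values.

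Of the 8 genes, 7 were at least 2.0-fold higher at D7, 0 were lower and 1, Lipa, lay between these limits. Over all 14986 genes above 0 in both libraries, 18.5% passed this limit upwards and 13.2% downwards, 31.7% in all. These were 2767 higher and 1980 lower genes, against 2836 and 3832 when values were floored at 0.01 and centred on the median of each library. The ratio of D7 to D0 was over 100 for Pnpla2, Lipe, Pnpla3 and Ces1d, and the smallest ratio among the 7 was that of Abhd5. The median difference of log2(FPKM + 0.1) was 6.16 over the 8 genes and 0.03 over the 16671 genes above 0 in a library.

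**Figure D1:**
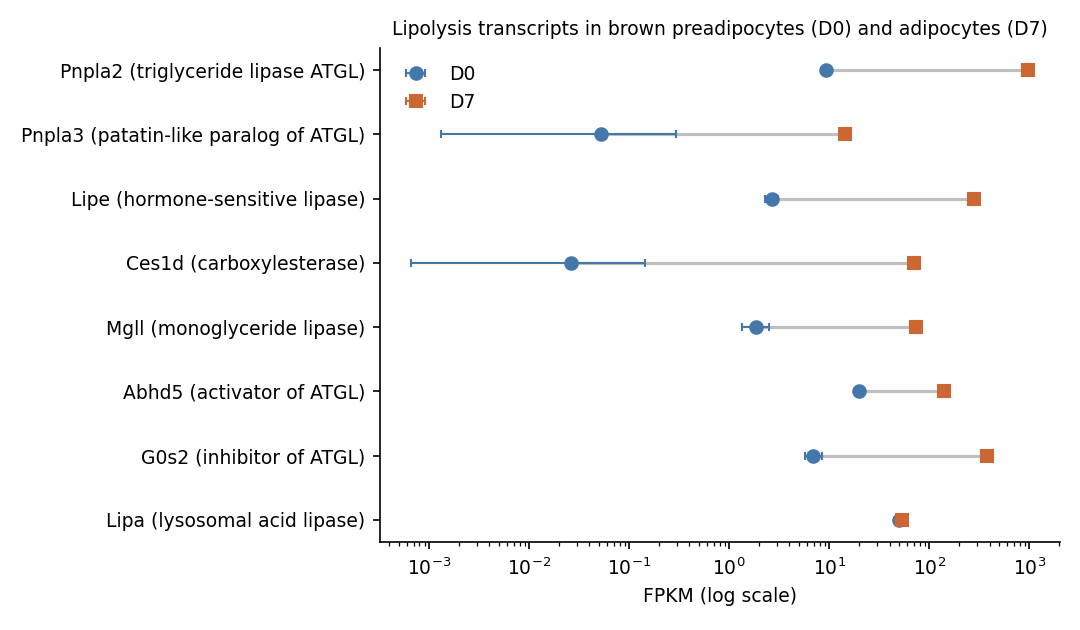
FPKM of the 8 lipolysis genes (log axis) at D0 (circles) and D7 (squares), 1 library each, with bars for the exact 95% counting interval at the annotated transcript length. The D7 points lie to the right of the D0 points by a factor of 7.15 for Abhd5 and by 39.7 or more for 6 genes, and the points of Lipa overlap.

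**Figure D2:**
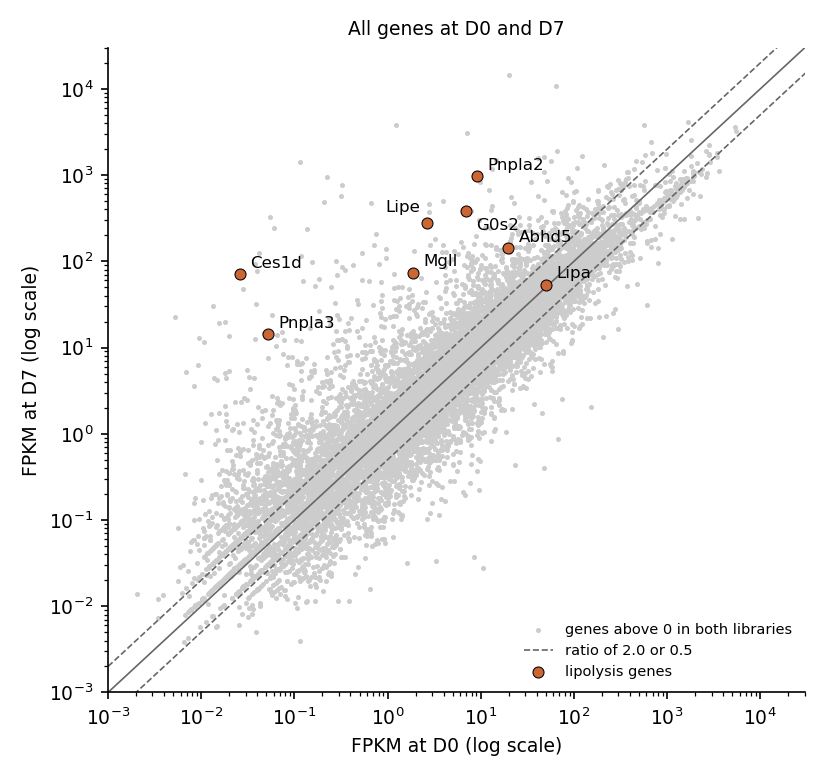
FPKM at D0 against FPKM at D7 for genes above 0 in both libraries (grey, log axes), with the 8 lipolysis genes in colour, a solid line at equal values and dashed lines at ratios of 2.0 and 0.5. Lipa lies at the solid line and the other genes above the upper dashed line.

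Pnpla2 (ENSMUSG00000025509.15, chromosome 7, 141455198 to 141460743, plus strand of mm10) encodes ATGL. At D0 its FPKM stood at 9.19 (about 482 fragments), at D7 at 979 (about 43685). The level at D7 was the highest of the 8 genes. The ratio was 107 (95% interval 97.4 to 117), and 0.520% of the genes above 0 in both libraries had a larger ratio. By level, Pnpla2 moved from rank 6312 of 23361 at D0 to rank 55 at D7. No other annotated gene overlaps it.

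Pnpla3 (ENSMUSG00000041653.5, chromosome 15, 84167837 to 84187236, plus strand) encodes a patatin-like protein related to ATGL, found on lipid droplets and known to respond to feeding. It had the lowest level of the 8 genes at D7, 14.3 FPKM against 0.0521 at D0. The deposited locus reaches 3336 bases beyond the annotated transcript, counted over both ends together. With the transcript extended to the ends of that locus, a choice made after seeing the data, the values stood for 5 fragments at D0 and about 1167 at D7. The ratio of 275 then had an interval from 117 to 847. At the annotated length of 1313 bases they stood for about 1 and 295 fragments, with an interval from 48.9 to 10881. The size of this ratio therefore rests on very few fragments at D0.

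Lipe (ENSMUSG00000003123.15, chromosome 7, 25379527 to 25398710, minus strand) encodes hormone-sensitive lipase, which also cleaves cholesteryl and retinyl esters. At D0 its FPKM stood at 2.65 (about 195 fragments), at D7 at 281 (about 17638). The ratio of 106 (92.2 to 123) was close to that of Pnpla2. In the deposited table Lipe shares a locus with 4 other genes, among them the antisense gene 4732471J01Rik. That gene stood at FPKM 0.240 and 1.16 at the 2 stages. The levels of the others at D7 were 0.295 (Ceacam1), 0.108 (Ceacam2) and 0 (Cxcl17), far below that of Lipe.

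Mgll (ENSMUSG00000033174.17, chromosome 6, 88724412 to 88828360, plus strand) encodes monoglyceride lipase, which also breaks down the endocannabinoid 2-arachidonoylglycerol. At D0 its FPKM stood at 1.86 (about 45 fragments), at D7 at 73.8 (about 1523). The ratio was 39.7 (29.6 to 54.7). These fragments are for the named transcript of 1312 bases, and Mgll also has longer annotated transcripts.

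Ces1d (ENSMUSG00000056973.6, chromosome 8, 93166068 to 93197838, minus strand) encodes a carboxylesterase with triglyceride hydrolase activity. It had the largest ratio of the 8 genes. At D0 its FPKM stood at 0.0261, a single fragment, and at D7 at 71.0 (about 2361 fragments). The ratio of 2722 has an interval from 488 to 107574, so that its size is poorly known. Among the genes above 0 in both libraries, 8 had a larger ratio. Ces1d belongs to a cluster of similar genes between which reads could be split. Of these, Ces1f was listed at 0 at D0 and reached FPKM 6.63 at D7. Ces1a had 0.155 and 0.152, Ces1e and Ces1g were listed at 0 at D0 and stayed under 0.1 at D7, and Ces1b and Ces1c were listed at 0 in both libraries.

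Abhd5 (ENSMUSG00000032540.16, chromosome 9, 122351608 to 122381524, plus strand), the activator of ATGL, was already well expressed in preadipocytes. At D0 its FPKM stood at 19.8 (about 1265 fragments), at D7 at 142 (about 7690). The ratio was 7.15 (6.74 to 7.60), and 4.25% of the genes above 0 in both libraries had a larger one. G0s2 (ENSMUSG00000009633.3, chromosome 1, 193272161 to 193273217, minus strand), the inhibitor of ATGL, stood at FPKM 6.94 at D0 (about 103 fragments) and at 379 at D7 (about 4766). The ratio was 54.5 (44.9 to 67.0). G0s2 overlaps Lamb3 on the opposite strand, which was listed at 0 at D0 and reached FPKM 1.23 at D7. The inhibitor thus had a larger ratio than the activator, and their intervals did not overlap.

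Lipa (ENSMUSG00000024781.16, chromosome 19, 34492318 to 34527474, minus strand), the lysosomal acid lipase, differed from the other genes. At D0 its FPKM stood at 49.6 (about 2973 fragments), at D7 at 53.5 (about 2724). The ratio of 1.08 had a counting interval from 1.02 to 1.14, which lies above 1. It was 0.845 under that floor and centring, so its direction depends on the scaling. By level, Lipa was at rank 1657 at D0 and 1606 at D7. A larger ratio was seen in 45.7% of the genes above 0 in both libraries. Lipa is also expressed by macrophages, whose part in its level was not tested. The summed FPKM of the macrophage markers differed by 3.78-fold between these libraries. The largest single value in that sum was that of Lyz2, 111 at D0 and 286 at D7.

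The sequences before the start of 4 of these genes are shown: ATGL and its paralog, the activator, and the lysosomal lipase. They were taken because annotated exons cover at most 8 of their 250 bases, while in Lipe, Mgll and G0s2 exons cover part or all of the window. They are the bases before the RefSeq start (GRCm38.p6, the assembly of mm10) up to any annotated exon, written 5′ to 3′ on the strand of the gene. Capitals mark matches on either strand to TATAAA (the core of the box of that name), to CCAAT (bound by NF-Y), to GGGCGG (the GC box), to AGGTCA (a site of nuclear receptors), to CACGTG (an E-box), to TTGCNNAA (a C/EBP type motif) and to TGTTTAC (a forkhead type motif).
Pnpla2 (chr7:141454938-141455187, plus strand): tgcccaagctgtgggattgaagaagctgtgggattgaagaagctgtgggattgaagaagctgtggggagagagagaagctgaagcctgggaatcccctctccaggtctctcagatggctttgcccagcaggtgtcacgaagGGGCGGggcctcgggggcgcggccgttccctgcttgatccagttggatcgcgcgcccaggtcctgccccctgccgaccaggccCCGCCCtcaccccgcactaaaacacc
Pnpla3 (chr15:84167566-84167815, plus strand): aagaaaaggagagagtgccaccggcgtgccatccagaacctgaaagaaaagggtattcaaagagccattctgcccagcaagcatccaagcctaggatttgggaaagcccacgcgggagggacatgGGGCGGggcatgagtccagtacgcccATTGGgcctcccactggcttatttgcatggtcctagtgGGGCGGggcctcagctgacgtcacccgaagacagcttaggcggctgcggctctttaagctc
Abhd5 (chr9:122351366-122351607, plus strand): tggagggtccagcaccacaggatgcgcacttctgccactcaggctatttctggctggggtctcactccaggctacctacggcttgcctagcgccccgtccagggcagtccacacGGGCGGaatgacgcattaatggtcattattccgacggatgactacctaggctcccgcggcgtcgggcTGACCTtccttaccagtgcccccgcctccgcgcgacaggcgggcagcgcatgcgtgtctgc
Lipa (chr19:34527475-34527724, minus strand): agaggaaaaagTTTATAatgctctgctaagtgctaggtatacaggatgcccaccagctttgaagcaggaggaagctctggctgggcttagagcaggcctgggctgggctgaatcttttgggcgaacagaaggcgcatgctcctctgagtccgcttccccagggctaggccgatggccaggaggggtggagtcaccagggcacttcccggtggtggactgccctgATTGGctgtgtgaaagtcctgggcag
RefSeq promoters were found for 7 of the 8 genes, with 9 starts in all, and Ces1d had no entry. In the 250 bases before a start, a GC box was present at 6 of the 9 starts and in 32.7% of all 32851 promoters. It was absent from Lipa and from 1 start each of Lipe and Mgll. Pnpla2 held 2 GC boxes, at 109 and 26 bases before its start. Pnpla3 held 2, at 125 and 61 bases, with a CCAAT box at 99 bases between them. Abhd5 held a GC box at 136 bases and the only AGGTCA match of the group, at 69 bases. That site was present in 14.0% of all promoters. Lipa held a CCAAT box at 26 bases and a TATAAA match at 239 bases, far from its start. The E-box was present before 1 start of Lipe and 1 of Mgll, in windows that lie wholly within annotated exons, and in 6.02% of all promoters. The forkhead type motif was found before the other start of Lipe and the same start of Mgll, and in 3.17% of all promoters. TTGCNNAA was found at 0 of the 9 starts and in 9.56% of all promoters. The GC content of the 9 windows was between 58.0% and 74.8%, above the median of 52.4% over all promoters, and the GC box is itself made of G and C. These matches describe letters, not binding.

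The order of the levels differed between the stages. At D0 it ran from Lipa over Abhd5, Pnpla2, G0s2, Lipe and Mgll to Pnpla3 and Ces1d. At D7 it ran from Pnpla2 over G0s2, Lipe, Abhd5, Mgll, Ces1d and Lipa to Pnpla3. Pnpla3 and Ces1d could not be told apart at D0, where each had very few fragments. Mgll and Ces1d could not be told apart at D7, with a ratio of 1.04 (0.974 to 1.11). All other neighbours in these orders were separated beyond counting error, which leaves out any error in the length used for a gene. The interval nearest to 1 was that of Lipe over Mgll at D0, 1.43 (1.03 to 2.02), and the smallest ratio was that of Pnpla2 over G0s2 at D0, 1.32 (1.07 to 1.65).

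FPKM is given per length, so that genes can be set against each other within a library, and such a ratio does not depend on scaling between libraries. It does depend on the lengths used by the authors, which are known only for single-exon genes, and the intervals leave this out. For Lipe and Pnpla2 the intervals at the 2 stages overlapped. Lipe stood at 0.289 of Pnpla2 at D0 (0.243 to 0.342) and at 0.287 at D7 (0.282 to 0.293). For the activator they did not. Abhd5 stood at 2.15 times Pnpla2 at D0 (1.94 to 2.40) and at 0.145 times Pnpla2 at D7 (0.141 to 0.148), a 14.9-fold lower proportion. Transcripts of the lipase thus went from fewer than those of its activator to 6.92 times as many.

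The inhibitor G0s2 stood at 0.756 of Pnpla2 at D0 (0.605 to 0.937) and at 0.387 at D7 (0.375 to 0.399), a 1.95-fold lower proportion. Against the activator it was 7.62-fold higher at D7, with G0s2 over Abhd5 at 0.351 (0.284 to 0.429) and then 2.68 (2.58 to 2.78). Perilipin 1, which binds ABHD5, had about 2 fragments at D0 and stood at 2.29 times Abhd5 at D7. Mgll fell behind Lipe, from 0.700 (0.495 to 0.973) to 0.262 (0.249 to 0.276). Ces1d over Pnpla2 was 0.00284 at D0, with an upper bound of 0.0159, and 0.0725 at D7. For Pnpla3 over Pnpla2 the D0 interval, from 0.000143 to 0.0317, held the D7 value of 0.0146, so no difference was detectable at this depth with the annotated transcript length. The proportion was not computed at the extended length. There the ratio of D7 to D0 had an interval from 117.3 to 847 for Pnpla3, against 97.4 to 116.8 for Pnpla2. These intervals narrowly did not overlap, at a length chosen after seeing the data.

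**Figure D3:**
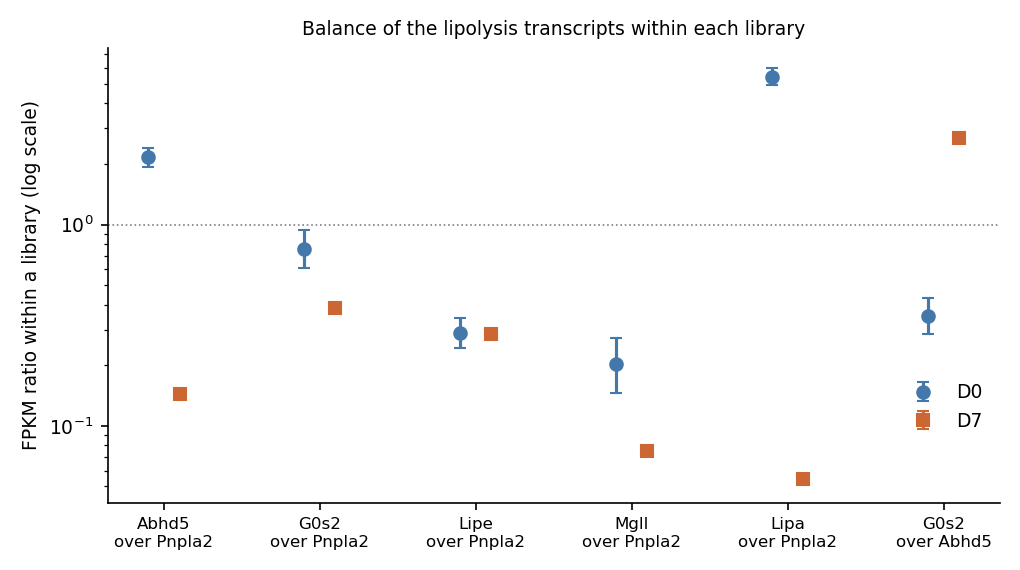
Ratio of the FPKM of 2 genes of the same library (log axis) at D0 (circles) and D7 (squares), with exact 95% counting intervals and a dotted line at 1. Lipe over Pnpla2 is 0.289 and 0.287, while Abhd5 over Pnpla2 is 2.15 and 0.145.

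The make-up of the lipase transcripts followed from these values. Over the 6 lipases, without the regulators Abhd5 and G0s2, the summed FPKM was 63.4 at D0 and 1473 at D7. Lipa gave 78.3% of it at D0 and 3.63% at D7. Pnpla2 gave 14.5% and then 66.5%, and Lipe 4.18% and then 19.1%. Mgll gave 2.93% and 5.01%, and Ces1d 0.0411% and 4.82%. Pnpla3 stayed under 1% in both libraries. Without Lipa, the summed FPKM was 13.8 at D0 and 1419 at D7, with a ratio of 103.

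**Figure D4:**
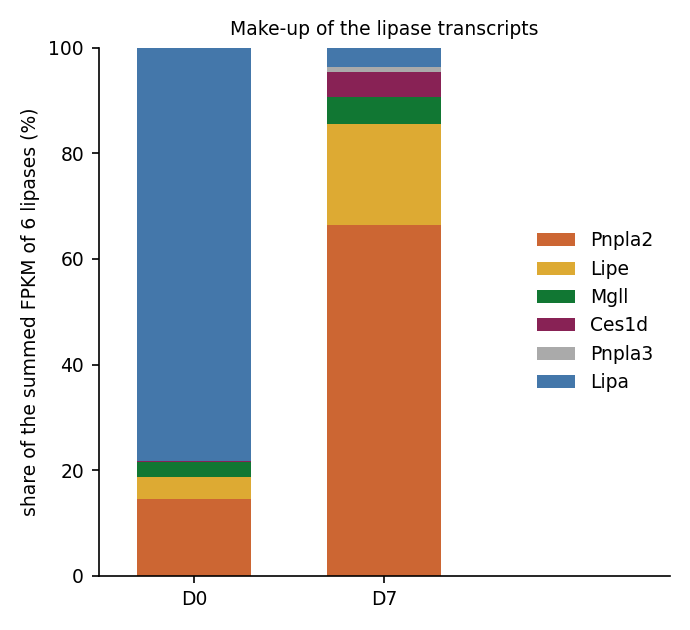
Share of each of 6 lipases in their summed FPKM (%) at D0 and D7, 1 library each, as stacked bars. Lipa makes up 78.3% at D0, and Pnpla2 and Lipe make up 66.5% and 19.1% at D7.

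Other proteins that act on the droplet surface or on ATGL were taken as a list of 19 genes without the members. Of the 15 above 0 in both libraries, 6 were at least 2.0-fold higher at D7, 0 were lower and 9 lay between. For this list and those below, the share over all genes above 0 in both libraries was 18.5% higher and 13.2% lower. The median difference of log2(FPKM + 0.1) was 0.71 over the 18 above 0 in a library. Plin1 (perilipin 1) went from FPKM 0.0554 at D0 to 324 at D7. Cidec, which promotes the fusion of lipid droplets, had 0.0612 and 241. Each of these had about 2 fragments at D0, and the lower bounds of their ratios were 1618 and 1088. Plin4 had 0.535 and 61.2. Plin2, the perilipin of most cell types, went from 100 to 641, 6.40 times as high (6.18 to 6.63). Bscl2 (seipin), needed for droplet formation, and Fitm2 had ratios of 6.87 and 6.67. Plin5, a perilipin of cells that burn fat, was listed at 0 at D0 and reached FPKM 15.3 at D7, and Cidea was listed at 0 and then at 24.4. Hilpda, another inhibitor of ATGL, had 12.6 and 8.93, a ratio of 0.709 (0.566 to 0.885). Faf2 (UBXD8), which acts on ATGL at the droplet, had the lowest ratio of the list, 0.657. Plin3 was near 1 with a ratio of 0.937.

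The receptors and signalling proteins that switch lipolysis on or off made up a list of 45 genes. Of the 38 above 0 in both libraries, 20 were at least 2.0-fold higher at D7, 4 were lower and 14 lay between, with a median difference of 1.33 over the list. Among activating receptors, Adrb3, the β3-adrenergic receptor, went from FPKM 0.125 (about 7 fragments) to 59.7, a ratio of 479 (232 to 1192). Mc5r had 0.0474 and 14.9, and Mc2r, the ACTH receptor, was listed at 0 and then at 9.60. Npr1, the receptor of atrial natriuretic peptide, had 0.108 and 7.05. Npr3, which clears that peptide, had a ratio of 2.96. Adrb1 stayed under 1 with 0.0201 and 0.640.

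Among receptors known to restrain lipolysis, those named here had higher values at D7, except Adra2a. Adora1, the adenosine A1 receptor, was listed at 0 at D0 and reached FPKM 25.1 at D7. Ffar4 was listed at 0 and then at 6.15, and Ffar2 at 0 and then at 3. Ptger3, a receptor of prostaglandin E2, had 0.152 and 5.31. Hcar1, the lactate receptor (listed as Gpr81), had 0.150 and 2.49. Hcar2, the niacin receptor (listed as Niacr1), stayed under 1 with 0.0263 and 0.620. Adra2a, the α2A-adrenergic receptor, had the lowest ratio of the list, 0.184 (0.128 to 0.257), from an FPKM of 3.46 to 0.635. Below the receptors, Prkar2b, a regulatory subunit of protein kinase A, had 6.48 and 147, a ratio of 22.7 (20.7 to 25.1), while Prkar1b had 14.7 and 4.04. The catalytic subunit Prkaca had 53.7 and 136. Pde3b, the phosphodiesterase through which insulin lowers cAMP, had 8.33 and 59.2, a ratio of 7.10 (6.67 to 7.57), whereas Pde4b had 18.4 and 5.21. Aebp1 had 273 and 66.6. The stimulatory G protein gene Gnas was at 1058 and 1024, a ratio of 0.968.

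Other neutral lipases and esterases made up a list of 53 genes. Of the 36 above 0 in both libraries, 13 were at least 2.0-fold higher at D7, 1 was lower and 22 lay between, and 11 were listed at 0 in both. The median difference was 0.66. Lpl, which releases fatty acids from lipoproteins outside the cell, went from FPKM 47.5 at D0 to 1618 at D7, with a ratio of 34.0 (33.0 to 35.1). Abhd15 had the largest ratio of the list, 83.7 (50.5 to 150), from 0.288 to 24.1. Pla2g16, a phospholipase abundant in fat, had 7.07 and 86.4, and Pnpla8, a phospholipase of mitochondria and peroxisomes, had 7.95 and 46.0. Among enzymes that share substrates with Mgll, Abhd6 had 2.89 and 8.38, a ratio of 2.90 (2.35 to 3.60), and Abhd12 had 33.0 and 39.5. The diglyceride lipases that make 2-arachidonoylglycerol, Dagla and Daglb, had ratios of 1.86 and 1.02. Nceh1, a neutral cholesteryl ester hydrolase, had a ratio of 0.584, and Abhd8, at 0.462, was the only gene of the list at or under 0.5. The pancreatic lipase gene Pnlip stayed under 0.1 in both libraries.

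Released fatty acids and glycerol are carried, burned or built into triglyceride again. Of 19 genes for the fate of fatty acids and glycerol, 16 were above 0 in both libraries, of which 11 were at least 2.0-fold higher at D7 and 0 lower, with a median difference of 2.91 over the list. Cd36, a fatty acid transporter, had the largest ratio, 719 (529 to 1002), from an FPKM of 0.665 to 478. Fabp4, the fatty acid binding protein aP2, had 20.3 and 14391. Aqp7, the glycerol channel, had 0.0199, a single fragment, and 13.4. Glycerol kinase (listed as Gyk) had 1.86 and 4.21. Dgat2, which makes triglyceride again from fatty acids, had 2.81 and 375, and Ucp1 was listed at 0 and then at 4.57. The lowest ratios were those of Cpt1a, 0.634, and Acsl4, 0.673. Of 12 genes of lipoprotein lipase handling, 9 were above 0 in both libraries, of which 6 were higher and 0 were lower, with a median difference of 3.02. Angptl8 (listed as Gm6484) had 0.272 and 5.85, and Apoc3 was listed at 0 and then at 33.9. The lowest ratios were those of Lmf2, 0.814, and Sel1l, 0.874. Lpl is in both this list and that of the lipases.

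Lipa acts in the lysosome. Of 36 lysosome genes, 4 were at least 2.0-fold higher at D7, 3 were lower and 29 lay between, with a median difference of -0.22. Over all genes above 0 in both libraries, 18.5% were higher and 13.2% lower. Ratios ran from 0.360 for Asah1, the acid ceramidase, to 4.71 for Mitf. The other 3 higher genes were Ctsb, Npc2 and Tfeb, and Gla, with a ratio of 0.370, was also among the lower genes. Tfeb and Mitf are transcription factors of lysosome genes, with FPKM at D7 of 5.96 and 4.42. Npc2, which takes up the cholesterol released by lysosomal lipase, had 177 and 368. Of 13 autophagy genes, which can bring droplets to the lysosome, 0 were higher and 0 were lower by 2.0-fold. Their ratios lay between 0.899 (Becn1) and 1.72 (Atg7), with Sqstm1 at 0.906 and Atg2a at 1.55 next to these, and their median difference was 0.22.

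**Figure D5:**
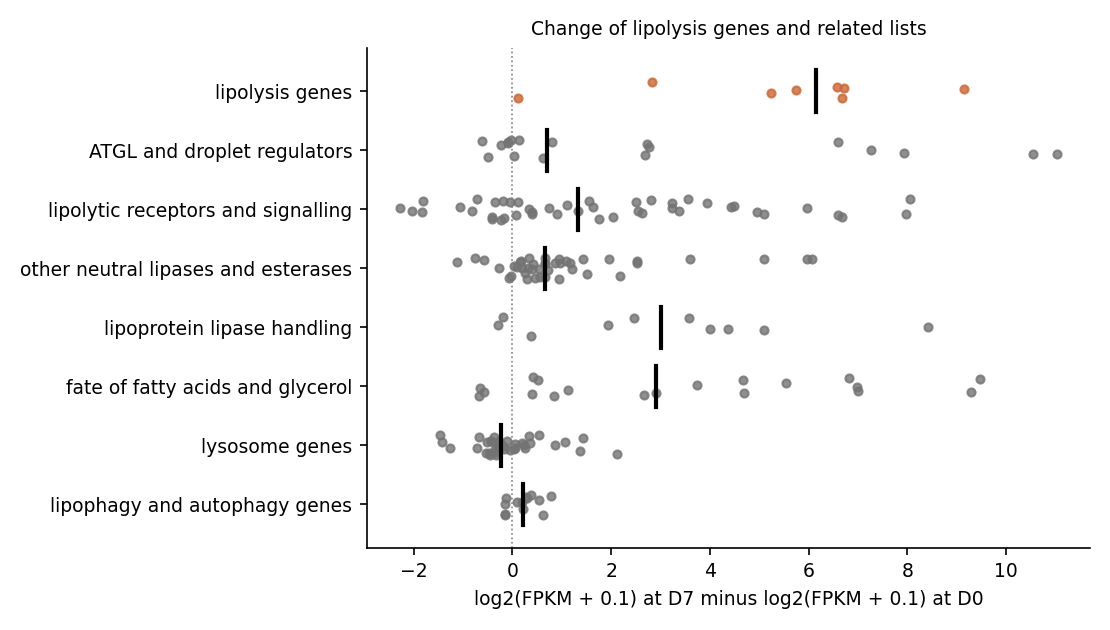
Difference of log2(FPKM + 0.1) between D7 and D0 for each gene above 0 in a library, by list, with a black bar at the median and a dotted line at 0. The medians are 6.16 for the lipolysis genes, 2.91 for the fate of fatty acids and glycerol and -0.22 for the lysosome genes.

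Of 19 transcription regulators known to act on these genes, 18 were above 0 in both libraries, of which 10 were at least 2.0-fold higher at D7, 2 were lower and 6 lay between, with a median difference of 1.49. Mlxipl (ChREBP), a carbohydrate-responsive activator, went from FPKM 0.0134, a single fragment, to 30.5. Ppargc1a had 0.0370 and 4.41. Pparg, known to activate Pnpla2, had 3.83 and 128, and Foxo1, another known activator of it, had 1.97 and 9.99. Irf4, known to act on Pnpla2 and Lipe, was listed at 0 and then at 1.98. The lower genes were Hes1, with a ratio of 0.386 (0.333 to 0.446), and Snai1, a repressor of Pnpla2, with 50.6 and 19.9, a ratio of 0.393 (0.355 to 0.434).

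For each of the 8 genes, the 2 genes nearest in the plane of log2 FPKM at D0 and D7 were found among 11947 genes, a likeness over 2 libraries only. Nearest to Pnpla2 were Pcx (pyruvate carboxylase) at a distance of 0.24 and Cdo1 at 0.60. Nearest to Lipe were Dgat2 at 0.42 and Car5b at 0.67. Clec3b at 0.36 and Ucp2 at 0.64 were nearest to Mgll. Bscl2 at 0.10 and Cpt2 at 0.14 were nearest to Abhd5. Cox7a1 at 0.20 and Cebpa at 0.57 were nearest to G0s2. Pnpla3 lay nearest to Mc5r at 0.15 and Rasd1 at 0.32, and Ces1d to Scd3 at 0.58 and Lrg1 at 0.62. Lipa, in the crowded middle of the plane, had Mbnl2 and Fdft1 at 0.02 and 0.03.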

How the data were processed

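RNA-Seq values of 2 libraries, D0 and D7, were used. Following the study's methods, the authors removed low-quality, adaptor, duplicate and rRNA reads and aligned the rest to mm10 and gene sequences with SOAP2, while the submitters' processing notes name Bowtie2. They deposited 1 FPKM value per gene and library. Of 27324 rows, 3963 without values were left out. Libraries were made with degradation of the second strand, but whether counting used strand is not given in the sources used here.

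Ratios of D7 to D0 were taken for genes above 0 in both libraries, with no pseudocount and no rescaling. A gene was called at 2.0-fold, the threshold of the study. The counts in the study, 2836 higher and 3832 lower, were instead reached with the floor of 0.01 and library median over all genes. Lists were measured by differences of log2(FPKM + 0.1). Fragment numbers came from single-exon genes of 600 bases or more whose ends in the table and in GENCODE M21 differed by at most 500. With a length correction of 179 bases at D0 and 182 at D7, all 79 and 89 values of up to 20 fragments lay within 0.1 of a whole number, against 30.0% and 35.0% with shuffled lengths. Fragments of genes with several exons are approximate, since the length used by the authors is known only for single exons. Intervals are exact Clopper-Pearson intervals, or exact Poisson intervals for single levels. The recovery of the fragment totals, and the intervals of changed genes, were tested on simulated counts of single-exon genes. That simulation did not cover genes with several exons, such as the members, or intervals that rest on very few fragments.

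The members and lists were chosen with earlier results of these data known. All members were named. In each list of lipid, lysosome, autophagy and regulator genes, the 2 highest and 2 lowest ratios at FPKM of at least 1 in a library and genes listed at 0 in 1 library and at 1 or more in the other were named, as were any genes of the droplet, receptor and lipase lists, and the 2 nearest genes of each member. Lists of cell type markers and ribosomal proteins are given by counts and sums, with few genes named. Dlk1, Cd34, Pdgfra, Acta1, Npc2, Tfeb, Aqp7, Gyk, Pparg and Foxo1 were chosen after their values were seen. Computation used scipy 1.17.1, numpy 2.4.6 and pandas 2.3.3 under Python 3.11.15, and plots matplotlib 3.10.9.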

Additional observations from a re-analysis of the deposited data

How the results depend on the processing

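Of the 8 genes, 7 were higher and 0 lower by 2.0-fold under every alternative tried for these counts, including a threshold of 4.0-fold. Over the scalings, the ratio of Pnpla2 ranged from 83.5 to 110, that of Lipe from 83.2 to 110, that of Abhd5 from 5.60 to 7.39 and that of Lipa from 0.845 to 1.11. The lowest came from values floored at 0.01 and centred on each library's median, which shifts all log2 ratios by -0.35. The other scalings shifted them by at most 0.05. A pseudocount of 1 brought the ratios of Ces1d to 70.1, Pnpla3 to 14.5, Mgll to 26.2, Lipe to 77.4 and Pnpla2 to 96.2, and brought the change of Ces1d over Pnpla2 from 25.5 to 0.729. The change of Pnpla3 over Pnpla2, 2.58, turned to 0.898 with a pseudocount of 0.1 and to 0.151 with 1. Over all genes above 0 in both libraries, 2767 higher and 1980 lower genes became 1455 and 1009 with a pseudocount of 1. At 4.0-fold they were 1211 and 578. With the floor and library median 3832 were lower, counted over all 23361 genes, including those listed at 0. The median of the droplet list was 1.65 with a pseudocount of 0.01 and 2.70 with the members kept, a choice made after seeing the data. That of lipoprotein lipase handling was 2.26 with a pseudocount of 1, and that of the fate of fatty acids and glycerol 3.75 at FPKM of at least 1. No paired analysis was possible because each stage has 1 library, and the spread between cultures is unknown.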
